A study of Mus musculus with 4 samples.

Results

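The genes described here are 34 markers and regulators of blood vessels in mouse fat: endothelial junction, surface and secreted proteins, the endothelial receptor tyrosine kinases, the SOX and ETS transcription factors of endothelial cells, markers of lymphatic endothelium, growth factors of the VEGF and angiopoietin families, and markers of pericytes. They were chosen by symbol, as every probe whose gene name in the scanner output was that of a listed gene. They make up 34 of 22066 genes and 45 of 55681 probes on the array. Of these genes 24 had 1 probe and 10 had several.

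ASK1 is a stress-activated kinase upstream of p38 and JNK, and the series asked what it does in adipose tissue. RNA of interscapular brown fat (iBAT) and of epididymal white fat (eWAT), each from WT and from ASK1-deficient animals, was hybridised to 4 one-colour arrays. Each array held 1 mixture of RNA from 3 male C57BL/6 J mice aged 10 weeks, with no treatment named in the labels. The deficient mice lacked ASK1 in the whole body and were bred separately from WT mice, so colony and genotype cannot be told apart. There was 1 array per condition, so the 2 genotype comparisons have no replicate check and no test was possible within a tissue.

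Blood vessels of fat consist of endothelial cells, which form the inner lining, and of pericytes and smooth muscle cells around them. VEGF ligands act on the receptors Kdr and Flt1, VEGF-C acts on Flt4 in lymphatic endothelium, and the angiopoietins act on Tek with Tie1 as its partner. Brown fat is a densely vascularised tissue in which capillaries deliver oxygen and fatty acids to heat-producing adipocytes. In RNA of whole tissue, fewer cells of a type and less RNA per cell cannot be told apart.

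The 75th percentile of the signal was 356 on the WT iBAT array, 371 on the ASK1-deficient iBAT array, 673 on the WT eWAT array and 634 on the ASK1-deficient eWAT array. Between 28985 and 33389 of 55681 probes were well above background, the scanner software's call that a spot exceeds its surround. The targeted gene Map3k5, which encodes ASK1, was lower on the deficient arrays by its first probe, with a log2 ratio in iBAT of -2.00 and in eWAT of -1.76, and its second probe gave -0.06 and -0.51. Brown adipocyte markers separated the tissues, with Ucp1 signals of 343275 and 263161 in iBAT against 6603 and 251.7 in eWAT. Both iBAT arrays also held skeletal muscle transcripts, and the WT eWAT array held hepatocyte transcripts, whose median log2 ratio between the eWAT arrays was -4.03.

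Promoters of 6 of the genes are shown because these genes fell on either side of the difference between the fat depots given further on. Kdr, Flt1 and Tie1, the receptors, had higher scaled signals in iBAT, a direction that turned without scaling, and Pdpn, Mmrn1 and Vegfc had higher scaled signals in eWAT. The RefSeq promoter table (mouse build GRCm38.p6) held 18 of the 34 genes, and the 250 bases before the annotated start are printed 5′ to 3′ on the strand of the gene. Capitals mark the core of the ETS motif, written CCGGAA or AGGAAG and searched on both strands. The windows are chr5:75978456-75978705 on the minus strand for Kdr, chr5:147726012-147726261 on the minus strand for Flt1, chr4:118489850-118490099 on the minus strand for Tie1, chr4:143299565-143299814 on the minus strand for Pdpn, chr6:60944067-60944316 on the plus strand for Mmrn1 and chr8:54077282-54077531 on the plus strand for Vegfc.
Kdr: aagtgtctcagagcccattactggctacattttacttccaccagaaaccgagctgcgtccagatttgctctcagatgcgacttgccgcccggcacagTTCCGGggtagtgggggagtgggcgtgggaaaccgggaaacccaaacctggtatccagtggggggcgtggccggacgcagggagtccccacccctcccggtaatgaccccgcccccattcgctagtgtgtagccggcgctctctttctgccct
Flt1: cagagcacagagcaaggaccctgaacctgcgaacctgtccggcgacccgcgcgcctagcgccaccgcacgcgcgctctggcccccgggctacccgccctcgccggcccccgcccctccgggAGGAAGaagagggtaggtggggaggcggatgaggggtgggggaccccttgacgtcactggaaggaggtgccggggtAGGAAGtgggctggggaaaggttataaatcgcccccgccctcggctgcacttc
Tie1: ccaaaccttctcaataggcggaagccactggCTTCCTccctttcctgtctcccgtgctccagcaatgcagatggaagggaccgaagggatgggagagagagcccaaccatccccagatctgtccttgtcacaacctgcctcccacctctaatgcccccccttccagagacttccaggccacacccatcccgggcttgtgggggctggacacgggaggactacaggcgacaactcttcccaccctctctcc
Pdpn: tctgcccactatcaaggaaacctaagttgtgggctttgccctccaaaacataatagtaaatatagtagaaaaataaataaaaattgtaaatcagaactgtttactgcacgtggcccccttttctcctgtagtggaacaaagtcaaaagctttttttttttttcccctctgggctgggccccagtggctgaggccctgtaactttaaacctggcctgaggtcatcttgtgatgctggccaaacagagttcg
Mmrn1: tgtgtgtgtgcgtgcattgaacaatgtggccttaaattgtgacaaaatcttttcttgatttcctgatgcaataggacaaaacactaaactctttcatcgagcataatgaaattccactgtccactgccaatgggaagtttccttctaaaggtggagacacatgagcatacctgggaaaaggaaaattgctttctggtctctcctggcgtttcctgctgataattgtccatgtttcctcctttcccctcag
Vegfc: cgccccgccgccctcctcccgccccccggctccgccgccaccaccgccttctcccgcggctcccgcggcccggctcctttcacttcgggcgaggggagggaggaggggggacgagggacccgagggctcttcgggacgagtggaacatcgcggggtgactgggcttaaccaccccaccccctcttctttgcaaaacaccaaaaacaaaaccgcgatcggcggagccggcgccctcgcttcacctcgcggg
The window of Flt1 held 2 ETS matches, those of Kdr and Tie1 held 1 each, and those of Pdpn, Mmrn1 and Vegfc held 0. Of the 18 genes with a promoter 8 had an ETS match, which is 44.4% against 41.5% of 27025 genes. A SOX motif, written AACAAT or ACAAAG on either strand, was found in 8 of the 18, or 44.4% against 26.8% of all genes, with 1 match each in the windows of Pdpn and Mmrn1. A match is a string of letters in this window and not a measured binding site.

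In iBAT the vascular genes lay mostly above 0 in the ASK1-deficient pool, and the largest ratios were those of Lyve1 and Mmrn1. Of the 34 genes 32 were measured in iBAT, that is, had a probe well above background on both arrays. Their median log2 ratio of ASK1-deficient over WT signal was 0.20, and 26 of 32 lay above 0. Over all 14377 genes measured the median was -0.07 and 40.5% lay above 0. By the rule of size used in place of a test, 2 of the 32 exceeded 2-fold upwards, beside 0.835% of all genes, and 0 did so downwards, beside 1.02%. With the normexp background correction 0 of 32 were past 2-fold, and the ratios of Lyve1 and Mmrn1, 0.54 and 0.69, then lay below that of Sox18 at 0.91. At 1.5-fold, 6 were higher (4.52% of all genes) and 2 were lower (4.26%). Angpt2 and Pdpn, both at 0.59, lay just past this cut and fell below it at 0.51 with median centring and 0.50 with the series table. With normexp Lyve1, Angpt2, Pdpn and Erg were no longer past 1.5-fold. The count above 0 ran from 23 to 27 of 32 over the other scalings and background correction tried.

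In eWAT the ratios of the vascular genes were smaller and mostly below 0. There 33 genes were measured, with a median log2 ratio of -0.07 and 21 below 0, against a median of 0.02 over 15377 genes, of which 45.9% lay below 0. Past 2-fold there were 0 of 33, beside 0.286% of all genes upwards and 0.865% downwards. At 1.5-fold, 0 were higher (1.38% of all genes) and 1 was lower (2.67%), Mmrn1. Probes spotted at least 5 times gave a measure of the technical error: the median SD of the log2 ratio between spots of 1 probe was 0.087 in iBAT and 0.060 in eWAT, which leaves out any difference between mice.

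**Figure D1:**
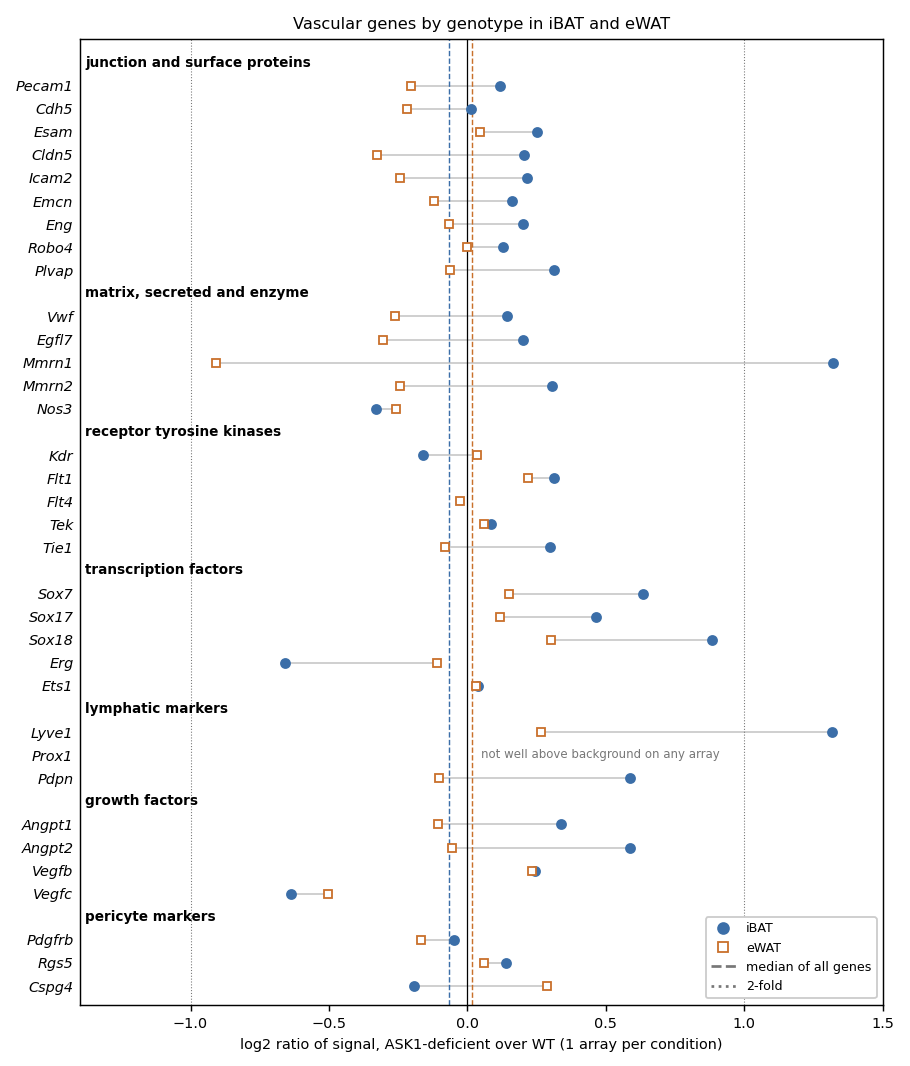
Log2 ratio of ASK1-deficient over WT signal for each vascular gene, ordered by role, in iBAT (filled circles) and eWAT (open squares), with 1 array per condition and dashed lines at the median of all genes. Lyve1 and Mmrn1 lie past the dotted 2-fold line in iBAT at 1.32, Mmrn1 is lowest in eWAT at -0.91, and Flt4 has a ratio in eWAT only.

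The junction and surface proteins had small ratios in iBAT. Relative to the 75th percentile of each array all 9 had a ratio above 0 in iBAT, from 0.01 for Cdh5, the cadherin of endothelial adherens junctions, to 0.31 for Plvap, which forms the diaphragms of fenestrated capillaries. The value of Cdh5 ran from -0.07 to 0.12 over the settings tried, so the count of 9 did not hold under all of them. In eWAT 8 of the 9 were below 0, down to -0.33 for Cldn5, the endothelial tight junction protein, but Robo4 at 0.00 ran from -0.09 to 0.02 over the settings, on both sides of 0. The signal of Cldn5 was 4202 on the WT iBAT array and 5048 on the ASK1-deficient one, and 15156 on the WT eWAT array and 11373 on the ASK1-deficient one, which gave log2 ratios of 0.20 and -0.33. The ASK1-deficient pool was thus above WT in iBAT and below it in eWAT. Pecam1, the platelet and endothelial adhesion molecule, had ratios of 0.12 and -0.20, and Robo4, a guidance receptor of endothelium, had 0.13 and 0.00.

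Among the matrix, secreted and enzyme genes, Mmrn1 stood apart. Mmrn1 encodes multimerin 1, made by platelets, endothelium and strongly by lymphatic endothelium. Its brighter probe (mm9 chr6:60938883-60938942) gave signals of 47.1 and 122.5 on the WT and ASK1-deficient iBAT arrays, and 1081 and 542.7 on the WT and ASK1-deficient eWAT arrays. The ratio on the log2 scale came to 1.32 for iBAT and -0.91 for eWAT, that is, 2.49-fold higher and 1.87-fold lower, and the order of genotypes was opposite. The second Mmrn1 probe (mm9 chr6:60896017-60896076) was not well above background on any array. The iBAT value shrank to 0.69 when signals were background-corrected with normexp and an offset of 50, a correction that raises dim signals, and the eWAT value to -0.73. Counting the second probe as well, with no filter on dim probes, gave 0.53 and -0.37.

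Vwf, the von Willebrand factor of endothelial storage granules, Egfl7, a secreted endothelial matrix protein, and Mmrn2, the endothelial relative of multimerin, had ratios of 0.14, 0.20 and 0.31 in iBAT and -0.26, -0.30 and -0.24 in eWAT. Nos3, the endothelial nitric oxide synthase, was lower on the ASK1-deficient array in both tissues. Its probe with 10 spots gave signals of 1785 and 1523 on the WT and ASK1-deficient iBAT arrays and 3929 and 3014 on the eWAT arrays. The log2 ratio of that probe was -0.29 ± 0.04 in iBAT and -0.30 ± 0.08 in eWAT (SD, n = 10 spots of 1 array pair). These errors cover spots of the same pool, and whether other mice would give the same difference was not tested. A second Nos3 probe gave -0.37 and -0.22.

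The 4 receptor tyrosine kinases measured in both tissues had ratios from -0.16 to 0.31 in iBAT and from -0.08 to 0.22 in eWAT. Flt1, which binds VEGF-A and VEGF-B, had 3 probes, all above 0 in both tissues, with gene ratios of 0.31 in iBAT and 0.22 in eWAT. Kdr, the main signalling receptor for VEGF-A, gave -0.28 ± 0.08 in iBAT and -0.14 ± 0.03 in eWAT (SD, n = 10 spots) by its probe with 10 spots, and -0.04 and 0.20 by its other probe, so its direction in eWAT depended on the probe. Tie1 had 0.30 and -0.08, and Tek, the angiopoietin receptor, 0.08 and 0.06. Flt4, the VEGF-C receptor of lymphatic endothelium, was dim, with signals of 10.0 on the WT iBAT array, where it was not well above background, 30.0 on the ASK1-deficient iBAT array, and 45.5 and 42.0 on the WT and ASK1-deficient eWAT arrays. Set against the lowest signal well above background on the WT iBAT array, Flt4 was at least 1.46-fold higher in ASK1-deficient iBAT.

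The 3 SOXF factors, Sox7, Sox17 and Sox18, which drive endothelial and lymphatic fate, all had higher signals in ASK1-deficient iBAT. Sox18 gave signals of 906.3 and 1744 on the WT and ASK1-deficient iBAT arrays and 1619 and 1880 on the eWAT arrays, with log2 ratios of 0.88 and 0.30. Sox7 gave 522.7 and 846.7 in iBAT and 1624 and 1695 in eWAT, with 0.63 and 0.15. The ASK1-deficient array was the higher one in both tissues for both genes, and the iBAT difference was the larger. Sox17 had ratios of 0.46 and 0.12, and its 2 probes gave 0.34 and 0.58 in iBAT.

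Of the ETS family, Erg, a regulator of endothelial identity, had lower signals in ASK1-deficient iBAT, but its 2 probes differed in size. The brighter probe (mm9 chr16:95581954-95582013) gave 99.5 and 88.9 on the WT and ASK1-deficient iBAT arrays and 257.5 and 272.5 on the eWAT arrays. The dimmer probe (mm9 chr16:95581811-95581870) gave 47.4 and 23.2 in iBAT and 81.6 and 58.7 in eWAT. The log2 ratios in iBAT were -0.22 and -1.09 by probe and -0.66 for the gene, and in eWAT they were 0.17 and -0.39 by probe and -0.11 for the gene. With the brightest probe alone Erg was not past 1.5-fold. Ets1, a broadly expressed ETS factor, gave -0.22 and 0.30 by its probes in iBAT, on opposite sides of 0.

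Of the 3 lymphatic markers Lyve1 and Pdpn were dim in iBAT and bright in eWAT. Lyve1 encodes the hyaluronan receptor of lymphatic endothelium, which some tissue macrophages also carry. Its probe (mm9 chr7:117994171-117994230) gave signals of 42.9 and 111.5 on the WT and ASK1-deficient iBAT arrays and 2427 and 2743 on the eWAT arrays. The ASK1-deficient pool was higher by 1.32 on the log2 scale in iBAT and by 0.26 in eWAT, and with normexp the iBAT value was 0.54. Pdpn encodes podoplanin, found on lymphatic endothelium and also on mesothelium and fibroblasts. Its brighter probe (mm9 chr4:142857339-142857398) gave 114.7 and 179.7 in iBAT and 4934 and 3978 in eWAT, with ratios of 0.59 and -0.22 on the log2 scale, and its other probe was well above background in eWAT alone, with 193.3 and 184.2. Prox1, the master transcription factor of lymphatic endothelium, was not well above background on any of the 4 arrays, so the factor that defines these cells gave no ratio. Further markers of lymphatic endothelium did not share the size of the Lyve1 and Mmrn1 ratios in iBAT: 5 of 9 with a probe were measured there, 4 of them above 0, with a median of 0.06 and 0 past 1.5-fold. They ran from -0.50 for Pard6g, a polarity protein, to 0.56 for Stab1. In eWAT 6 of 8 were below 0 with a median of -0.16, the lowest being the tight junction gene Cldn11 at -2.74, with signals of 219.9 on the WT array and 30.9 on the ASK1-deficient one.

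Among the growth factors, Vegfc, the main lymphangiogenic ligand, was lower on the ASK1-deficient array in both tissues. Its probe (mm9 chr8:55271533-55271592) gave 515.4 and 345.5 on the WT and ASK1-deficient iBAT arrays and 1974 and 1310 on the eWAT arrays. The log2 ratios were -0.64 and -0.50, or 1.56-fold and 1.42-fold lower, from a probe with 1 spot per array. Vegfc kept this direction under each scaling and background correction, from -0.72 to -0.54 in iBAT and from -0.59 to -0.48 in eWAT. Angpt2, the context-dependent Tek ligand released by endothelium, gave 131.4 and 205.9 in iBAT and 1136 and 1029 in eWAT, with 0.59 and -0.06. Angpt1, the Tek agonist made by mural cells, had 0.34 and -0.11. Vegfb, a Flt1 ligand, gave 6286 and 7759 in iBAT and 6340 and 7016 in eWAT, with 0.24 and 0.23.

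The pericyte markers had no common direction. Cspg4, the NG2 proteoglycan of pericytes and progenitors, gave 3595 and 3280 on the WT and ASK1-deficient iBAT arrays and 1739 and 1999 on the eWAT arrays, with log2 ratios of -0.19 and 0.29. Rgs5, a regulator of G-protein signalling enriched in pericytes, gave 6053 and 6954 in iBAT and 6011 and 5895 in eWAT, with 0.14 and 0.06. Pdgfrb, the PDGF-B receptor of pericytes, had -0.05 and -0.17.

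**Figure D2:**
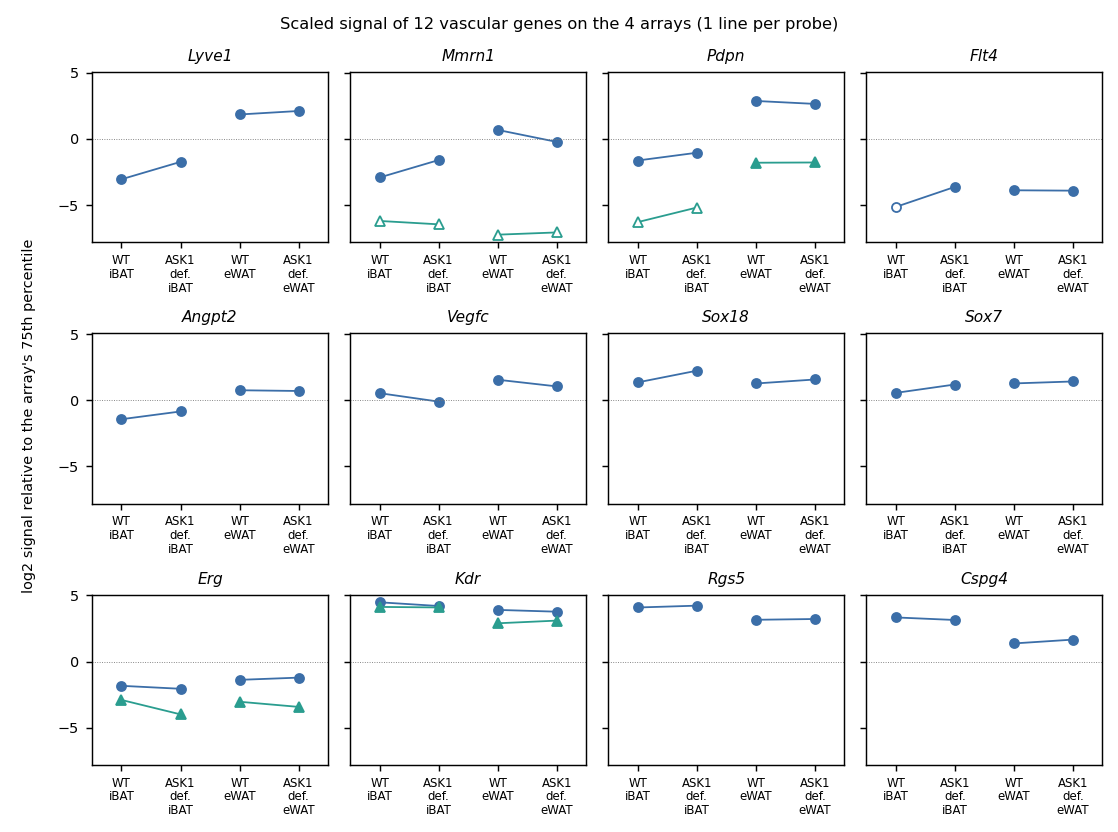
Log2 signal relative to the 75th percentile of each array (dotted line at 0) for 12 vascular genes on the 4 arrays, with a line per probe joining the genotypes of a tissue and open symbols where the probe was not well above background. The scaled signal of Lyve1 runs from -3.05 and -1.74 in iBAT to 1.85 and 2.11 in eWAT, and that of Cspg4 is higher in iBAT.

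Of the 32 genes measured in both tissues, 16 had a ratio above 0 in iBAT and below 0 in eWAT (18% of 14059 genes measured in both), 2 were the other way round (32.6%), 10 were above 0 in both (22.5%) and 4 below 0 in both (26.9%). The difference between the tissues was not tested, as each ratio rests on 1 array pair. When genotype and tissue were fitted together over the 4 arrays with limma, 0 of the 32 genes had an adjusted p under 0.05 for genotype, beside 0% of 14057 genes. At an unadjusted p under 0.05 there were 3 of 32, beside 770 of 14057 (5.48%). These were Vegfc, with a log2 difference of -0.57, Sox18 with 0.59 and Lyve1 with 0.79, and their limma adjusted p was 0.651, 0.822 and 0.838.

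Further lists were read beside the 34 genes. Of 28 other endothelial markers measured in iBAT 17 lay above 0, with a median of 0.13, and in eWAT 8 of 29 did, with a median of -0.12. The largest ratios there were those of Vcam1, a leukocyte adhesion molecule, at 0.91 in iBAT, Cd34, a sialomucin of endothelium and progenitors, at 0.59 in iBAT, Procr, the protein C receptor, at 0.58 in iBAT, and Selp, the P-selectin of venules, at -0.55 in eWAT. Of the 12 genes of capillary lipid handling 6 lay above 0 in iBAT and 9 in eWAT, with medians of -0.01 and 0.06. Among them Rbp7, a retinol-binding protein of fat endothelium and adipocytes, had 1.15 in iBAT and 0.82 in eWAT, with signals of 6048 and 13979 on the iBAT arrays and 20495 and 34062 on the eWAT arrays.

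Of 27 further genes of the VEGF, angiopoietin, PDGF and Notch pathways, 24 were measured in iBAT, 13 of them above 0 with a median of 0.06, and 25 in eWAT, 10 of them above 0 with a median of -0.03. Angptl4, a secreted inhibitor of lipoprotein lipase, had the largest ratio, 1.02 in iBAT and 0.74 in eWAT, followed in iBAT by Pgf, the placental growth factor that binds Flt1, at 0.89 and Pdgfd, a PDGF receptor ligand, at 0.77. Aplnr, the apelin receptor of sprouting endothelium, was lowest in eWAT at -0.70. Vegfa, the main ligand of Kdr, had ratios of -0.12 and 0.12. By limma 0 of the 24 genes tested had an adjusted p under 0.05 for genotype and 6 had an unadjusted p under 0.05, beside 5.48% of all genes.

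Markers of other cells also differed in these comparisons. In iBAT 9 of 9 measured macrophage markers were above 0 with a median of 0.67, and their summed signal over the 75th percentile was 41.6 on the WT array and 52.5 on the ASK1-deficient one. The smooth muscle genes Tagln and Myh11 had 0.65 and 0.67 in iBAT, and 13 of 17 genes of that list were above 0. Of 18 genes of the list measured in eWAT 13 were below 0. The largest ratios of the list were there, those of Cnn1 at -1.03 and Kcnj8 at -0.73, and Kcnj8 was also below 0 in iBAT at -0.48. In eWAT 10 of 10 mesothelial markers were below 0 with a median of -0.25, their summed signal being 40.7 on the WT array and 33.9 on the ASK1-deficient one. The summed signal of the hepatocyte markers was 43.1 on the WT eWAT array and 7.90 on the ASK1-deficient one. Fibroblast markers were above 0 in 6 of 8 cases in iBAT (median 0.15) and below 0 in 7 of 8 in eWAT (median -0.05). Brown adipocyte markers were below 0 in 10 of 10 cases in iBAT, with a median of -0.26 and summed signals of 4247 on the WT array and 3583 on the other, and in 7 of 9 in eWAT, with a median of -0.84 and summed signals of 53.9 and 19.6. All 4 erythrocyte markers measured were below 0 in both tissues, with medians of -0.26 in iBAT and -0.20 in eWAT. Skeletal muscle markers were below 0 in 4 of 8 cases in iBAT (median 0.00) and in 4 of 6 in eWAT (median -0.70). In iBAT 3 of 8 hepatocyte markers stood well above background for WT and 7 for the ASK1-deficient pool. The part of all these markers in the ratios of the vascular genes was not tested.

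**Figure D3:**
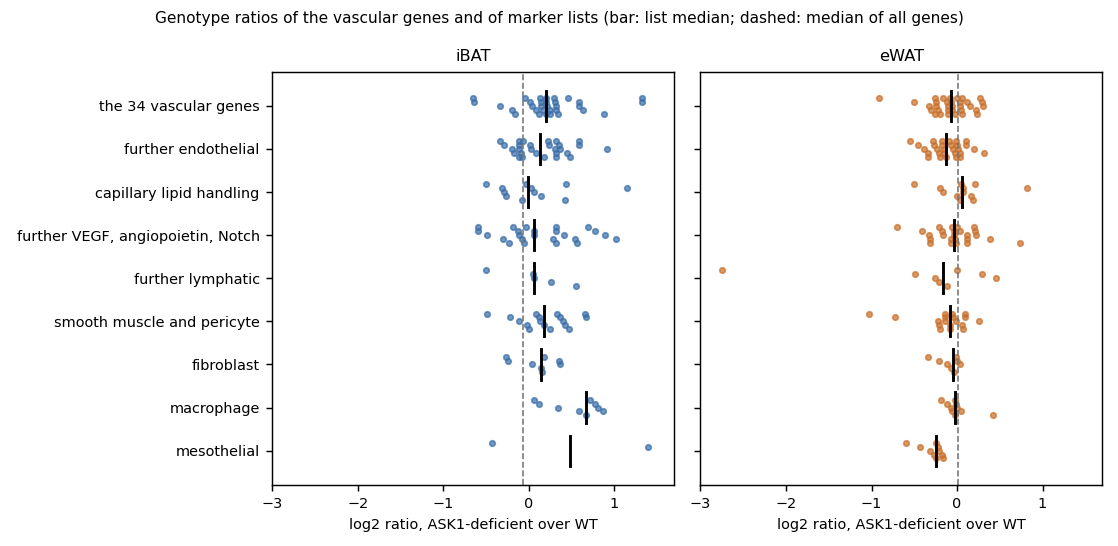
Log2 ratio of ASK1-deficient over WT signal for each measured gene of the vascular set and of 8 marker lists, in iBAT (left) and eWAT (right), with a bar at each list's median and a dashed line at the median of all genes. The vascular genes have medians of 0.20 in iBAT and -0.07 in eWAT, and the macrophage markers lie at 0.67 in iBAT and -0.02 in eWAT.

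Between the fat depots the vascular genes differed in both directions. Relative to the 75th percentile of each array, both measured lymphatic markers and 3 of 5 matrix and secreted genes were lower in iBAT than in eWAT by limma, beside 24.6% of all genes tested, while 3 of 4 receptor kinases, whose direction turned without scaling, and 2 of 3 pericyte markers, of which Rgs5 was not called without scaling, were higher in iBAT, beside 30.8%. Of the growth factors 1 was higher and 2 were lower, and 6 of 9 junction and surface genes and all 5 transcription factors were not called. Differences between roles were not tested. In WT mice 7 of 32 genes measured lay at least 2-fold below their eWAT signal (13.4% of all genes) and 1 at least 2-fold above it (16.4% of all genes), with a median log2 difference of -0.22 against 0.12 for all genes. In ASK1-deficient mice the counts were 7 of 33 lower (12.6%) and 2 higher (12.3%), with a median of -0.06 against 0.03. The same 7 genes were past 2-fold lower in both genotypes: Angpt2, Lyve1, Mmrn1, Pdpn, Plvap, Vegfc and Vwf. Cspg4 was past 2-fold higher in both, and Rgs5 at 1.01 in ASK1-deficient mice and 0.93 in WT mice.

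In the limma fit of tissue and genotype over the 4 arrays, which takes the 2 genotypes as replicates of a tissue and leaves 1 residual degree of freedom, 16 of 32 genes had an adjusted p under 0.05. Of these 10 were lower in iBAT, beside 24.6% of 14057 genes, and 6 were higher, beside 30.8%. The other 16 differed by -0.47 to 0.37 and had adjusted p of 0.059 to 0.797 in limma, which does not show that they were equal. Arrays could be left out only from a fit of tissue alone, which called 16 with all 4 arrays. There the lone array of a tissue is assumed to vary like the pair of the other. The genotype difference of that pair, together with a variance pooled over all genes, gives the spread. Leaving out the WT eWAT array lowered the count to 10, with 35% of all genes called, and Cldn5, Flt1, Mmrn2, Robo4, Tie1 and Vegfc were no longer called. Calls were also lost for Flt1, Mmrn2, Robo4 and Tie1 without the ASK1-deficient eWAT array, for Cldn5 and Mmrn2 without the WT iBAT array, and for Flt1 and Vegfc without the ASK1-deficient iBAT array. Without scaling between arrays, which moved the median of all genes by -0.92 in WT and -0.77 in ASK1-deficient mice, the split was 24 lower and 1 higher, beside 68.2% of all genes called lower and 9.13% called higher. Without the filter on dim probes, where 32.5% of all genes were called higher and 15.5% lower, 10 of 34 were called, and Cldn5, Flt1, Mmrn1, Mmrn2, Robo4 and Tie1 were no longer called.

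The lymphatic markers Lyve1 and Pdpn gave the largest differences. Flt4 was not tested, and it was higher in iBAT by 0.28 on the log2 scale in the ASK1-deficient pair. In the WT pair Flt4 was at least 1.22-fold higher in eWAT. Prox1 was not well above background on any array, so it gave no tissue difference. Lyve1 was lower in iBAT by a log2 difference of -4.38 ± 0.26 (SE, limma adjusted p = 5.81e-05), or 20.8-fold, with -4.90 in WT and -3.85 in ASK1-deficient mice. With normexp the fold was 11.2 for Lyve1, and for Mmrn1 it was 3.33 in place of 5.61, both still lower in iBAT with limma adjusted p of 6.14e-09 and 0.000134. Pdpn differed by -4.10 ± 0.22 (limma adjusted p = 4.27e-05), or 17.2-fold. By its dimmer probe the eWAT signal of Pdpn exceeded that of iBAT at least 5.19-fold in WT and at least 6.24-fold in ASK1-deficient mice. Mmrn1 differed by -2.49 ± 0.47 (limma adjusted p = 0.0051), with the largest SE of the 32, the WT pair giving -3.60 and the ASK1-deficient pair -1.38. With its dim second probe counted it differed by -0.83 and was not called (limma adjusted p = 0.070), the pairs giving -1.28 and -0.38. Of 9 further lymphatic markers with a probe, 5 were tested and 3 of them were lower in iBAT in limma, beside 24.6% of all genes, among them Stab1, a scavenger receptor that macrophages also carry, at -1.58 ± 0.18 (adjusted p = 0.00071), while Nrp2, the VEGF-C coreceptor, was higher at 1.64 ± 0.15 (adjusted p = 0.00031).

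Cells that share these markers also differed between the depots. Of 10 mesothelial markers 10 were well above background on both eWAT arrays, against 2 on the WT and 4 on the ASK1-deficient iBAT array, and their summed signal was 40.7 and 33.9 in eWAT against 0.482 and 0.594 in iBAT. Wt1 and Upk3b, which define mesothelium, had eWAT signals of 4138 and 3324 in WT and were not above background in iBAT. Of 9 macrophage markers tested 8 were lower in iBAT in limma, with summed signals of 41.6 and 52.5 in iBAT against 163 and 155 in eWAT. All 8 fibroblast markers were also lower in iBAT. The part of mesothelium, macrophages and fibroblasts in the differences of Lyve1, Pdpn and Vegfc was not tested.

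Angpt2 was lower in iBAT by -1.87 ± 0.19 (limma adjusted p = 0.00045) and Vegfc by -1.08 ± 0.15 (limma adjusted p = 0.0013), while Vegfb was higher by 0.91 ± 0.14 (limma adjusted p = 0.0026). Vwf and Plvap, typical of veins and fenestrated capillaries, were lower by -1.33 ± 0.18 (adjusted p = 0.0013 in limma) and -1.27 ± 0.16 (adjusted p = 0.0011 in limma). A second Vwf probe was well above background in eWAT alone, where it exceeded iBAT at least 3.49-fold in WT and at least 3.73-fold in ASK1-deficient mice. The smaller differences were those of Cldn5 at -0.67, Mmrn2 at -0.61 and Robo4 at -0.48, of which Robo4 was not called with median centring or the series table (limma adjusted p = 0.0558 and 0.0747), and the remaining 6 junction and surface genes, Pecam1 and Cdh5 among them, were not called.

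Among the roles, the receptors with 3 of 4 tested and the pericyte markers with 2 of 3 had the largest shares higher in iBAT, beside 30.8% of all genes. In the further list of smooth muscle and pericyte genes 17.6% were higher and 35.3% lower. Kdr was higher in iBAT by 0.81 ± 0.15 (limma adjusted p = 0.0047), Tie1 by 0.70 ± 0.16 (limma adjusted p = 0.012) and Flt1 by 0.61 ± 0.15 (limma adjusted p = 0.013), and Tek had 0.10 and was not called. By the brightest probe of each gene Flt1 had 0.38 and was not called (limma adjusted p = 0.0678). These directions depend on the scaling, since without it the limma differences were -0.04 for Kdr, -0.15 for Tie1 and -0.24 for Flt1. Cspg4 was higher by 1.73 ± 0.17 (limma adjusted p = 0.0004) and kept its direction without scaling at 0.88. Rgs5 was higher by 0.97 ± 0.15 (limma adjusted p = 0.0020), with 0.12 and no call without scaling, and Pdgfrb had -0.20 and was not called. None of the 5 transcription factors was called, the values running from -0.47 for Sox7 to 0.37 for Sox18.

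**Figure D4:**
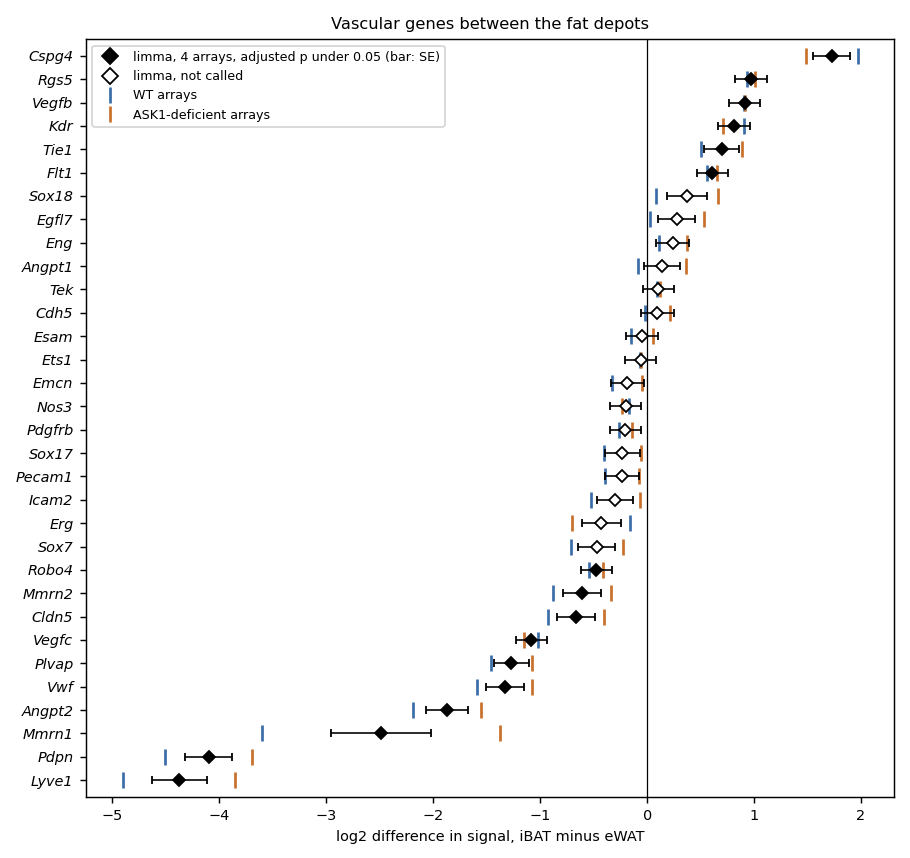
Log2 difference in signal between iBAT and eWAT for the 32 vascular genes tested, with diamonds for the limma estimate over the 4 arrays (bars are SE, filled where the adjusted p is under 0.05) and ticks for the WT and the ASK1-deficient pair. Cspg4 is at the top with 1.73 and Lyve1 at the bottom with -4.38, and the ticks of Mmrn1 lie farthest apart.

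Of 24 further pathway genes tested, 6 were higher (25%) and 5 lower (20.8%) in iBAT in limma, shares below the 30.8% and 24.6% of all genes. Vegfa was higher by 2.16 ± 0.15 (limma adjusted p = 0.00011) and Figf, the gene of VEGF-D, was lower by -3.02 ± 0.15 (limma adjusted p = 3.47e-05). Transcripts of VEGF-A and VEGF-B, which act on blood vessels, were thus higher in iBAT, and those of the Flt4 ligands VEGF-C and VEGF-D were lower, although the difference of Vegfb was 0.07 and not called without scaling. Pgf, which also binds Flt1, had -0.45 and was not called (limma adjusted p = 0.101). Of 28 further endothelial markers 4 were higher (14.3%) and 11 lower (39.3%), against the same 30.8% and 24.6%, including Thbd, the thrombomodulin gene, at -2.78 ± 0.19 (limma adjusted p = 8.9e-05) and Ackr1, the chemokine receptor of venules, at -1.86 ± 0.17 (limma adjusted p = 0.00025). Of 12 genes of capillary lipid handling 5 were higher (41.7%), with Cd300lg, a capillary mucin, at 1.05 ± 0.15 (limma adjusted p = 0.0018), and 4 were lower (33.3%). Of 17 genes of smooth muscle and pericytes 3 were higher (17.6%) and 6 lower (35.3%), with Des, the desmin of pericytes and muscle, at 2.62 ± 0.14 (limma adjusted p = 4.9e-05), beside skeletal muscle markers of which 6 of 6 tested were higher in iBAT.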

How the data were processed

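Gene expression was measured in 4 pools on Agilent whole mouse genome 8 × 60K arrays. The authors deposited the scanner output of Agilent Feature Extraction 10.7.3.1 with protocol GE1_107_Sep09, in which the processed value is a linear intensity, background-subtracted and detrended, with array positions on mm9. The authors also deposited a series table whose signal, on a linear scale, is the same value after division by 1 constant per array; it was used as an alternative. Depth does not apply to arrays, and their number limits the precision.

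Processed intensities were divided by the 75th percentile of each array and log2-transformed, spots flagged as outliers were left out, and spots of a probe were averaged. A probe was measured in a comparison when well above background on both arrays, and a gene was the mean of its measured probes. Of 34844 gene names in the files 22147 matched RefSeq, giving 22066 genes. Tissue and genotype were fitted with limma 3.58.1 in R 4.3.3, with Benjamini-Hochberg adjustment, for the 14057 genes detected in this way on each of the 4 arrays. The fit takes the tissue difference as equal in both genotypes. Its SE and p-values combine how far the genotype pairs of a gene disagree, with 1 residual degree of freedom, and a variance pooled over all genes. That pooled variance counts as 5.24 prior degrees of freedom and so carries most of the weight. Neither part measures the spread between mice. The procedure was tested on simulated data with planted tissue effects, noise as between repeated spots and no genotype effect. Such data cannot show how the calls would hold at the spread between pools or mice. Python 3.11.15, numpy 2.4.6, pandas 2.3.3 and matplotlib 3.10.9 were used.

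Named in full were genes at least 1.5-fold apart between genotypes, the 3 highest and 3 lowest of each comparison, and genes whose probes lay on opposite sides of 0 by at least 0.25. Of the other lists, up to 4 genes each were named by their largest genotype ratio, and genes named for their tissue difference, and Ets1, were chosen after their values were seen. The genes and lists were chosen with earlier results of these data known. Alternatives were normexp with an offset of 50, quantile normalisation, centring on the median, no scaling, a 75th percentile taken over commonly detected probes, the series table, a looser and a stricter filter on background, the brightest probe of a gene, tissue without a genotype term, leaving out each array, and a 1.5-fold threshold. Exons of the probes are not assigned here, since no mm9 annotation was used.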

Additional observations from a re-analysis of the deposited data

Results flagged for a closer look

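Mmrn1 had a log2 ratio of ASK1-deficient over WT signal of 1.32 in iBAT and of -0.91 in eWAT, past 1.5-fold in opposite directions in the 2 tissues. Each ratio rests on 1 array pair and on 1 probe, and the difference between the tissues was not tested. The signal on the WT iBAT array was 47.1, against a lowest signal well above background of 19.7 on that array. In eWAT 10 of 10 mesothelial markers and the hepatocyte markers were also lower on the ASK1-deficient array, and in iBAT 9 of 9 macrophage markers were higher. Their part in the Mmrn1 ratios was not tested.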

How the results depend on the processing

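No fit with a replicate block could be made, because each condition has 1 array; the limma fit already compares the tissues within each genotype, with 1 residual degree of freedom. In iBAT the count of genes at least 2-fold apart between genotypes was 2, and 0 with normexp and 8 at 1.5-fold; in eWAT it was 0, and 1 without the filter on dim probes and 1 at 1.5-fold. Between tissues it was 8 in WT mice, and 21 without scaling and 14 at 1.5-fold, and 9 in ASK1-deficient mice, with 15 at 1.5-fold. The median log2 ratio of the genes in iBAT moved from 0.20 to 0.30 with quantile normalisation and 0.30 with the percentile over commonly detected probes, and fell to 0.12 under the series table or median centring, and in eWAT from -0.07 to -0.15 without scaling. The median tissue difference moved in WT mice from -0.22 to -0.32 with normexp, -0.39 with quantile normalisation, -1.14 without scaling and -0.35 with that percentile, and in ASK1-deficient mice from -0.06 to -0.83 without scaling, -0.14 with median centring and -0.13 with the series table. The percentile over commonly detected probes moved the median of all genes by 0.10 for iBAT genotype and by -0.13 for WT tissue, quantile normalisation by -0.11 for WT tissue, and no filter by 0.21 and 0.22 for tissue in WT and ASK1-deficient mice. The limma count of 16 genes called between tissues became 25 without scaling and 10 without the filter, and ran from 10 to 16 when 1 array was left out of a fit of tissue alone, lowest without WT eWAT. Without scaling the differences of Kdr, Flt1 and Tie1 turned to -0.036, -0.24 and -0.15, and no other called gene turned under any alternative. The causes were not tested, except that a scaling by 1 constant per array shifts all genes of an array alike. Quantile normalisation and normexp do not. Signal over background limits Lyve1, Mmrn1, Flt4 and Erg in iBAT, and Prox1 on every array.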
